A study of Homo sapiens with 8 samples.

Results

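The counts of 10 genes that form 5 pairs of near-identical copies were described in cells with and without overexpressed KRT19: SERF1A and SERF1B, SMN1 and SMN2, BOLA2 and BOLA2B, EIF3C and EIF3CL, and MAGED4 and MAGED4B. They were selected by name, because the counts of these copies in these same libraries had been seen to vary, and they are 10 of the 58735 genes of the count table. The libraries were labelled as A549, an established human lung adenocarcinoma line, transduced with lentivirus. In the EV group (n = 4) the lentivirus was an empty vector, and in the KRT19 group (n = 4) it carried Flag-tagged KRT19, with puromycin-selected stable cells in both. Keratin 19, the product of KRT19, builds intermediate filaments in simple epithelia. The promoter that drives the transgene and the number of separate cultures were not given in the sources used here, so the p-values below measure the spread between these libraries, which may be technical.

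Total counts ran from 14073065 to 17054364 per library, and KRT19 had 1 to 5 counts in the EV libraries and 4353 to 5147 in the KRT19 libraries. Of the markers of the labelled line, the keratin genes KRT8 and KRT18 had 2988 to 3857 and 4271 to 5746 counts, whereas EPCAM and CDH1 had 0 to 3 and 0 to 1, the surfactant genes SFTPB and SFTPC had 0, and the lung lineage factor NKX2-1 had 3 to 4. The aldo-keto reductase genes AKR1B10 and AKR1C1, known for high levels in A549, had 1 to 14 and 10 to 22. CDKN2A and MTAP, which lie in a deletion described for A549, had 1328 to 1824 and 653 to 870 counts. Of the markers of other cell types, COL1A1 had 21 to 54 and PECAM1 8 to 24, and PTPRC, COL1A2, ALB, AFP and SAG had at most 1. The counts of CDKN2A, MTAP, EPCAM, CDH1, AKR1B10 and AKR1C1 go against the label, and the cells are called here by their groups. The part of the identity of the line in the results was not tested.

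Recent segmental duplications leave the genome with gene copies whose transcripts can be the same over long stretches. A short sequencing read from such a stretch matches both copies equally well. A counting program can drop it, split it, give it to 1 of them or count it for both. SMN1 and SMN2 encode the survival motor neuron protein, which assembles small nuclear ribonucleoproteins, and SERF1A and SERF1B lie beside them on chromosome 5. BOLA2 acts with glutaredoxin in iron-sulfur cluster handling, EIF3C is a core subunit of the translation initiation factor eIF3, and MAGED4 belongs to the type II MAGE family.

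All 10 copies lie on GRCh38 as protein-coding genes. On chromosome 5, SERF1B (70025247 to 70043113) is followed by SMN2 (70049612 to 70078522), and SERF1A (70900665 to 70918530) by SMN1 (70925030 to 70953942), all on the plus strand, so that 857.6 kb separate the SERF1 copies and 846.5 kb the SMN copies. On chromosome 16, BOLA2 (29443056 to 29454964) and BOLA2B (30192934 to 30194306) both lie on the minus strand 738.0 kb apart, and EIF3C (28688558 to 28735730, plus strand) and EIF3CL (28379579 to 28403879, minus strand) lie 284.7 kb apart. MAGED4 (52184823 to 52192268, plus strand) and MAGED4B (52061827 to 52069248, minus strand) lie 115.6 kb apart on chromosome X.

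The transcripts of the copies were compared in GENCODE 29 as the share of all distinct 75-base words of a gene that also occur in its partner. The share was 98.6% for MAGED4 and 95.8% for MAGED4B, 88.1% for SERF1A and 96.8% for SERF1B, and 81.9% for SMN1 and 86.1% for SMN2. It was 51.9% for BOLA2 and 65.5% for BOLA2B. Counting any other gene and not only the partner, 89.8% and 87.9% of a sample of their words occurred elsewhere, so this pair also shares sequence with genes outside it. The EIF3C pair was uneven, because EIF3C has more annotated sequence of its own: 41.3% of its words but 96.0% of those of EIF3CL occurred in the other copy. The annotated coding sequences of SERF1A and SERF1B (330 bases), BOLA2 and BOLA2B (456 bases) and MAGED4 and MAGED4B (2271 bases) were identical. These pairs also had closely matching whole transcripts of equal length. Between the longest of these there were 0 mismatches over 1012 bases for BOLA2 and BOLA2B and 0 over 2618 bases for MAGED4 and MAGED4B. There was 1 mismatch over 1889 bases for SERF1A and SERF1B. SMN1 and SMN2 likewise had such transcripts, with 1 mismatch over 1550 bases.

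The first 120 coding bases of BOLA2 and BOLA2B are shown because this pair had the widest difference in counts between libraries. They were the same letters in BOLA2 (chr16:29454332-29454451, minus strand) and BOLA2B (chr16:30193674-30193793, minus strand), and no letter is in capitals because none differs.
BOLA2 and BOLA2B: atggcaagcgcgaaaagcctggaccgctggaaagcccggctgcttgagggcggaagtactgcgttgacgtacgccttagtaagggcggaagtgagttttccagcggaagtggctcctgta

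The coding sequences of EIF3C (2739 bases) and EIF3CL (2742 bases) had 0 mismatches and differed only by 3 bases that EIF3CL has in addition, in a run of GAG codons. The windows of EIF3C (chr16:28723228-28723287, plus strand) and EIF3CL (chr16:28392016-28392078, minus strand) show this place, with the 3 bases in capitals at the first position at which the alignment can put them.
EIF3C: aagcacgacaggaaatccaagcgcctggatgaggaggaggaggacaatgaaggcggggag
EIF3CL: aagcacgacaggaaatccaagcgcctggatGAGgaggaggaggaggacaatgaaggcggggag

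The promoter windows of SERF1A and SERF1B in RefSeq (GRCh38.p14), from 250 bases before to 50 bases after the start, were identical over all 300 bases. The 250 bases before the start are shown because SERF1B was the single copy whose groups did not overlap. They lie at chr5:70900419-70900668 for SERF1A and chr5:70025001-70025250 for SERF1B, both on the plus strand. The longest run shared by the promoter windows was 273 bases for the BOLA2 pair and 276 for the MAGED4 pair.
SERF1A and SERF1B: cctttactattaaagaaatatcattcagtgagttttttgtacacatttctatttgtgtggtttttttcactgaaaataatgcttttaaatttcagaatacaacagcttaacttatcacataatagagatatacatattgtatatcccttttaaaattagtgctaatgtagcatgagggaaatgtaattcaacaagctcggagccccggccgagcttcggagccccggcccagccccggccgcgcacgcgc

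In the following, CPM is the count divided by the library size (in units of 1000000 counts) after scaling, and the coefficient of variation (CV) is the SD over the mean of the CPM in 1 group. Over all 14619 genes tested with the pairs summed, the median CV was 7.51% for EV and 8.69% for KRT19 libraries, and the 95th percentile was 32.7% and 34.7%. The CV of the 5 summed pairs ran from 31.5% to 81.3% for EV and from 27.5% to 106% for KRT19 libraries. Since the members were selected on this variation, these values describe them and test nothing. Of the 10 copies, SERF1A, SMN2 and BOLA2 did not pass the filter on low counts. The log2 fold changes of single copies are likewise given without a test.

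**Figure D1:**
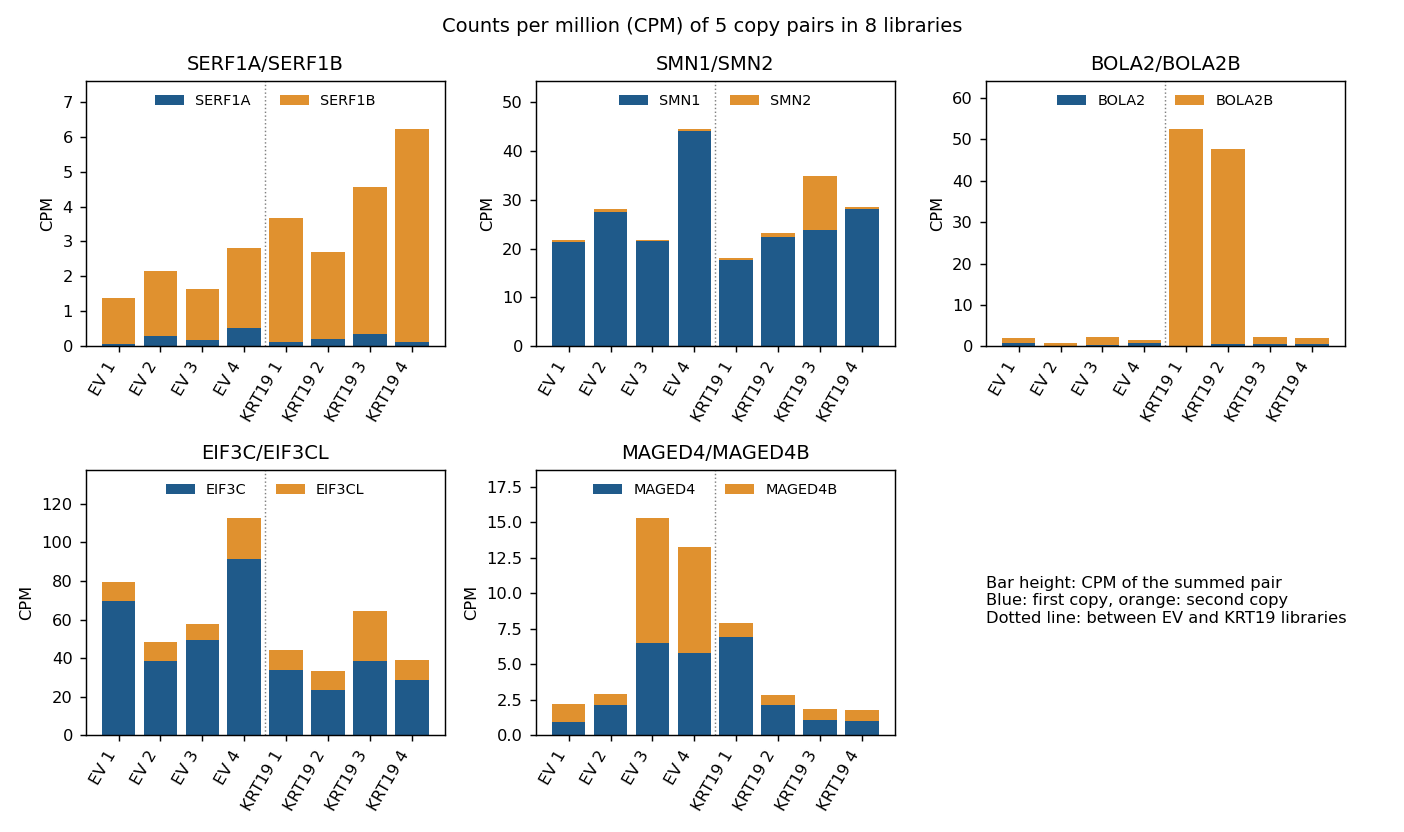
CPM (y axis, linear, from 0) of the first copy (blue) and the second copy (orange) of each pair, stacked, in the 4 EV and 4 KRT19 libraries (x axis). The BOLA2 pair stands at 52.5 and 47.7 CPM in KRT19 1 and KRT19 2 and between 0.844 and 2.37 CPM in the other 6 libraries.

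BOLA2B had the widest range of all members. Its counts were 17, 11, 35 and 15 in EV 1 to EV 4 and 867, 663, 27 and 24 in KRT19 1 to KRT19 4. KRT19 1 and KRT19 2 were high, and KRT19 3 and KRT19 4 lay within the range of the EV libraries, so that the groups overlapped. BOLA2 itself had 14, 3, 4 and 12 counts in the EV libraries and 3, 8, 10 and 7 in the KRT19 libraries, with no library apart. The log2 fold change of BOLA2B was 4.40 ± 0.94 (SE), and from 3.76 without KRT19 1 to 4.84 without EV 3. Summed, the pair had 1.72 ± 0.67 CPM in the EV group and 26.1 ± 27.8 CPM in the KRT19 group (SD, n = 4), with a KRT19 CV of 106%. BOLA2 also shared annotated exons with its neighbours. The read-through gene BOLA2-SMG1P6 (1 to 10 counts) covered 74.2% of its exonic bases on the same strand and the pseudogene SMG1P6 (3 to 19 counts) 26.5%, and SLX1B (0 to 2 counts) covered 24.6% on the opposite strand. SLX1A (0 to 2 counts) covered 30.8% of BOLA2B on the opposite strand. The handling of strand was not given in the sources used here, so reads of these genes and of the BOLA2 copies cannot be told apart in these stretches.

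SERF1B, which with SERF1A encodes a small protein that modifies amyloid aggregation, had 20, 31, 24 and 39 counts in EV 1 to EV 4 and 59, 35, 72 and 92 in KRT19 1 to KRT19 4. In CPM the EV libraries lay at 1.33, 1.87, 1.46 and 2.29 and the KRT19 libraries at 3.56, 2.49, 4.22 and 6.09, so that every KRT19 library was above every EV library. This made SERF1B the 1 of 10 copies without overlap between the groups, against 3.43% of all features tested, and its log2 fold change was 1.23 ± 0.25 (SE). SERF1A had 1, 5, 3 and 9 counts in the EV libraries and 2, 3, 6 and 2 in the KRT19 libraries, too few to show a difference at this depth. With SERF1A added, the pair stood at 1.40, 2.17, 1.64 and 2.82 CPM in the EV libraries and 3.68, 2.70, 4.57 and 6.22 CPM in the KRT19 libraries. EV 4 was then above KRT19 2, and the groups overlapped.

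SMN1 carried most of the counts of its pair, with 320, 456, 354 and 748 counts in EV 1 to EV 4 and 291, 314, 408 and 425 in KRT19 1 to KRT19 4. EV 4 was the highest, at 44.0 CPM against 17.6 to 28.1 in the other 7 libraries. SMN2 had 6, 10, 4 and 8 counts in the EV libraries and 7, 13, 186 and 6 in the KRT19 libraries, so that KRT19 3 alone stood apart. The log2 fold change of SMN1 was -0.32 ± 0.18 (SE), and -0.03 without EV 4. Summed, the SMN copies had 29.01 ± 10.7 CPM in the EV group and 26.1 ± 7.2 CPM in the KRT19 group (SD, n = 4).

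EIF3C had 1043, 639, 808 and 1555 counts in EV 1 to EV 4 and 564, 328, 658 and 429 in KRT19 1 to KRT19 4. In CPM, EV 2 and KRT19 3 were level at 38.5, EV 1, EV 3 and EV 4 were above them and KRT19 1, KRT19 2 and KRT19 4 below. EIF3CL had 151, 167, 142 and 364 counts in the EV libraries and 168, 139, 441 and 159 in the KRT19 libraries. EV 4 and KRT19 3 were high, at 21.4 and 25.8 CPM, and the other 6 libraries lay between 8.64 and 10.5 CPM. The log2 fold change was -0.99 ± 0.20 (SE) for EIF3C and 0.18 ± 0.30 (SE) for EIF3CL. The EIF3CL value turned to -0.31 without KRT19 3 and was 0.57 without EV 4. The summed pair had 74.7 ± 28.6 CPM in the EV group and 45.2 ± 13.6 CPM in the KRT19 group (SD, n = 4).

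MAGED4 had 14, 35, 107 and 98 counts in EV 1 to EV 4 and 115, 30, 18 and 15 in KRT19 1 to KRT19 4. EV 3, EV 4 and KRT19 1 were high, and the groups overlapped. MAGED4B had 19, 13, 145 and 127 counts in the EV libraries and 16, 10, 13 and 12 in the KRT19 libraries, so that it was high in EV 3 and EV 4 only. KRT19 1 was therefore high for MAGED4 and not for MAGED4B. The log2 fold change was -0.46 ± 0.53 (SE) for MAGED4 and -2.50 ± 0.60 (SE) for MAGED4B. The MAGED4 value was -1.49 without KRT19 1 and -0.09 without EV 3. The summed pair had 8.41 ± 6.84 CPM in the EV group and 3.59 ± 2.92 CPM in the KRT19 group (SD, n = 4).

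Between the copies, mean levels over all 8 libraries were compared per kb of annotated exonic length. They depend on how reads that match both copies were counted, which was not given, so they need not be the expression of each copy. EIF3CL, for example, had 122 of 3070 75-base words of its own. SERF1B had 0.955 CPM per kb and SERF1A 0.0722, SMN1 had 8.32 and SMN2 0.596, and BOLA2B had 9.84 and BOLA2 0.256. The mean of BOLA2B was 0.974 CPM per kb over the 6 libraries other than KRT19 1 and KRT19 2, and that of SMN2 was 0.164 over the 7 libraries other than KRT19 3. EIF3C and EIF3CL had 6.68 and 4.31 CPM per kb, and MAGED4 and MAGED4B had 0.687 and 0.545. On chromosome 5 the copies with more counts, SERF1B and SMN1, lie in different copies of the duplicated segment.

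The split of the counts within a pair was then followed from library to library as the share of the first-named copy. Exact Clopper-Pearson 95% intervals, which cover counting error only, are given in brackets. A chi-square per degree of freedom of the copies by libraries within a group is near 1 where the split varies no more than counting noise. The share of SMN1 was 97.9% to 98.9% in the EV libraries and 97.7%, 96.0%, 68.7% and 98.6% in KRT19 1 to KRT19 4. The value of KRT19 3 (64.8% to 72.4%) stood below the intervals of all other libraries, and the chi-square per degree of freedom was 0.991 for the EV and 94.6 for the KRT19 libraries. For the BOLA2 pair, the share of BOLA2 was 0.345% (0.0712% to 1.00%) in KRT19 1 and 1.19% (0.516% to 2.34%) in KRT19 2, and 10.3% to 45.2% in the other 6 libraries. The chi-square per degree of freedom was 4.62 for the EV and 76.1 for the KRT19 libraries.

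The share of EIF3C was 87.4%, 79.3%, 85.1% and 81.0% in EV 1 to EV 4 and 77.0%, 70.2%, 59.9% and 73.0% in KRT19 1 to KRT19 4. All EV libraries were above all KRT19 libraries, which held for 1 of the 5 pairs and, by the same measure, for 0 of 12 other copy pairs, and the means were 83.2% ± 3.7 and 70.0% ± 7.3 (SD, n = 4). The intervals of EV 2 (76.3% to 82.0%) and KRT19 1 (73.8% to 80.0%) overlapped. Within the groups the chi-square per degree of freedom was 10.7 and 23.0. The pairs were selected on unstable counts, so these chi-square values describe them and test nothing. The share of MAGED4 was 42.4%, 72.9%, 42.5% and 43.6% in the EV libraries and 87.8%, 75%, 58.1% and 55.6% in the KRT19 libraries, with chi-square values of 5.32 and 7.47. KRT19 1, KRT19 2 and EV 2 were the highest for this share. SERF1A took 2.13% to 18.8% of its pair, and its chi-square values were 0.873 and 1.33 at 21 to 94 summed counts per library.

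**Figure D2:**
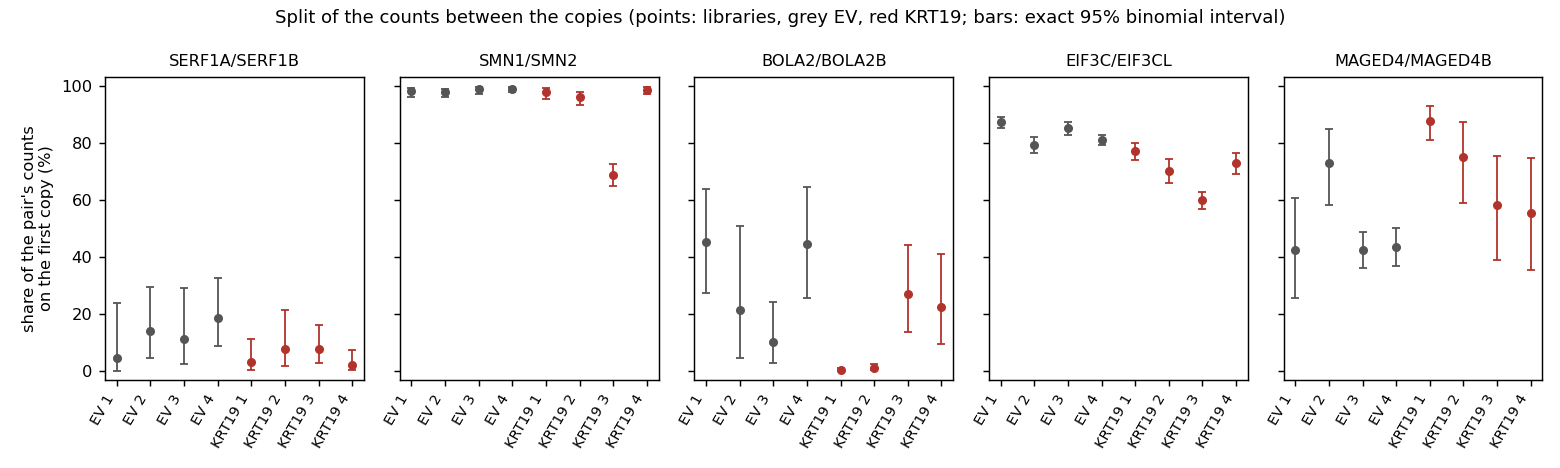
Share of each pair's counts on the first-named copy in percent (y axis) in the 8 libraries (x axis), grey for EV and red for KRT19, with exact 95% binomial intervals as bars. KRT19 3 stands at 68.7% for SMN1 against 96.0% to 98.9% in the other libraries, and the KRT19 libraries lie below the EV libraries for EIF3C.

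Other duplicated genes of the table showed how the same measure behaved elsewhere. Of 24 further copy pairs, 12 had at least 100 summed counts in every library. The range of the first copy's share over 8 libraries had a median of 5.23 percentage points in these, and 9 of the 12 stayed under 10 percentage points. Their chi-square per degree of freedom within a group ran from 0.161 to 15.4, the highest for CCZ1/CCZ1B. The 3 widest were CCZ1/CCZ1B with 15.6, F8A1/F8A2 with 11.5 and ZNF286A/ZNF286B with 10.2 percentage points. Several of the 12 shared few 75-base words, such as POM121 and POM121C with 23.8% and 26.8%. RGPD5 and RGPD6 (93.0% and 98.4%) and MAGEA2 and MAGEA2B (93.2% and 85.2%) were more alike but did not reach the count minimum. The 12 are therefore not a set matched to the members in shared sequence. Of the 5 pairs described here, the SMN and EIF3C pairs reach the same count minimum, and their ranges were 30.3 and 27.5 percentage points. Without KRT19 3, an alternative chosen after the data were seen, the SMN range was 2.92 and the EIF3C range 17.1, and the 12 other pairs had a median of 5.23 and a highest range of 15.6. The MAGED4, BOLA2 and SERF1 pairs, with fewer counts in some libraries, ranged over 45.4, 44.8 and 16.6 percentage points. These 3 ranges hold more counting noise than those of the 12 other pairs, and other pairs of low count were not ranked. CTAG1A and CTAG1B shared 87.8% and 87.4% of their 75-base words, and the share of CTAG1A lay between 54.5% and 63.5%. F8A1 and F8A2 shared 63.6% and 100%, and the share of F8A1 lay between 84.8% and 96.3%. Whether shared words go with the range of the split was not tested.

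**Figure D3:**
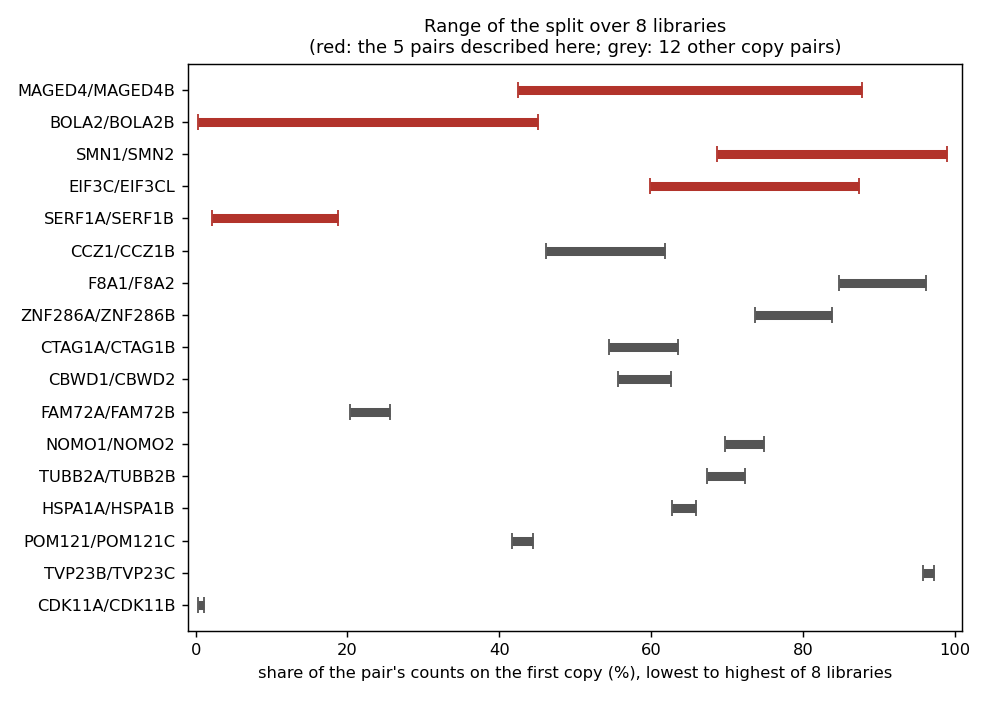
Lowest to highest share of the first-named copy over the 8 libraries (x axis, percent) for the 5 pairs described here (red) and 12 other copy pairs with at least 100 summed counts in every library (grey). The red ranges run from 16.6 to 45.4 percentage points and the grey ones from 0.814 to 15.6. However, the SERF1, BOLA2 and MAGED4 pairs do not reach the count minimum set for the grey pairs, and without KRT19 3 the SMN range is 2.92. Several grey pairs also share fewer 75-base words than most red pairs.

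A read that is moved between copies stays within the sum, so the pairs were also compared between the groups as 1 row each. The sum does not hold a read given to a gene outside the pair. A read counted for both copies would enter it more than once. The summed log2 fold change, KRT19 against EV, was 3.92 ± 0.85 (SE) for the BOLA2 pair, 1.09 ± 0.25 for the SERF1 pair, -0.15 ± 0.20 for the SMN pair, -0.72 ± 0.21 for the EIF3C pair and -1.22 ± 0.52 for the MAGED4 pair. By edgeR's quasi-likelihood test with Benjamini-Hochberg adjustment over all 14619 features, the adjusted p was 0.457, 0.477, 0.953, 0.877 and 0.906 in the same order, and 0 of 5 passed the threshold of 0.05. Over all features, 0.00684% passed, which is KRT19 itself. At an unadjusted p under 0.05 there were 4 of 5 pairs, all but SMN, against 5.4% of all features. DESeq2 put 0 of 5 past the adjusted threshold, against 0.0274% of all features, and 3 of 5 at an unadjusted p under 0.05, against 3.98%. Because the pairs were selected on counts of this same contrast, these counts support nothing about the pairs as a group. In 0 of 5 pairs did the groups separate without overlap in CPM, against 3.43% of all features.

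The spread behind the sums was large. The biological CV estimated by edgeR was 65.8% for the BOLA2 pair, 49.5% for MAGED4 and 19.3% to 20.4% for SMN, SERF1 and EIF3C, against 6.86% in common over all features. The sums of the BOLA2 and MAGED4 pairs still differed by up to 25.6 and 6.98 times between libraries of the same group, so that summing the copies did not level the libraries. Without KRT19 3, the BOLA2 sum passed the threshold, at 4.32 with an adjusted p of 0.000923 by edgeR (0.0674 to 0.997 without any other single library). The SMN sum turned from -0.15 to 0.13 without EV 4. With a looser filter that kept every gene with at least 1 count, 4 of 5 sums passed, against 0.222% of 30245 features, with adjusted p from 2.996e-195 to 1.105e-05 by edgeR. That fit had infinite prior degrees of freedom, so each feature took the spread of the trend, and the quasi-dispersion of the BOLA2 sum was 0.879 in it against 36.5 in the fit above.

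**Figure D4:**
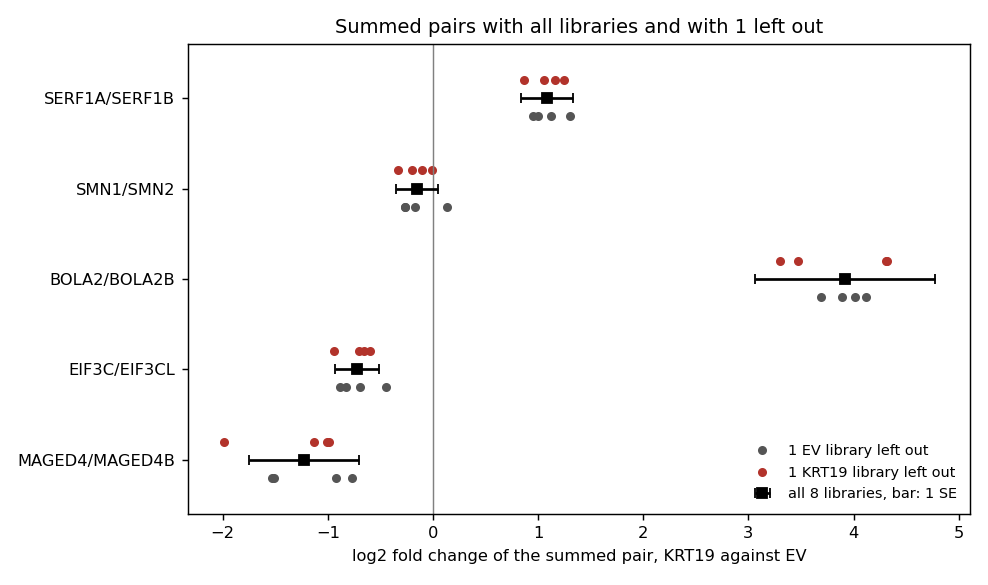
Log2 fold change of the summed pairs, KRT19 against EV (x axis), with all 8 libraries (black squares, bars of 1 SE) and with 1 EV (grey) or 1 KRT19 (red) library left out. The BOLA2 sum runs from 3.30 to 4.32 and the MAGED4 sum from -1.99 to -0.77, and the SMN sum lies on both sides of 0.

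Genes related to the members by function or family, taken from lists, varied less between libraries than the summed pairs. The pairs were selected for their variation, and their summed counts ran from 14 to 1919 against 26 to 11875 for the listed genes. Of 20 genes of the SMN complex and snRNP assembly, 0 passed the adjusted threshold in either direction and 0 had an unadjusted p under 0.05. Their median log2 fold change was 0.04, beside 0.01 over all features. The lowest p belonged to SNRPD3, a core Sm protein (0.09 ± 0.05, SE), and DDX20, a helicase of the SMN complex (0.10 ± 0.08). The other 12 subunits of eIF3 also gave 0 in either direction at both thresholds, with EIF3A at 0.10 ± 0.05 and EIF3J at 0.21 ± 0.10 as the lowest p, and a median of 0.02. KRT19 3 was high for both, with 3931 counts of EIF3J against 2295 to 2676 in the other libraries, and without it the values were 0.04 for EIF3A and 0.05 for EIF3J. Of the 10 BOLA and glutaredoxin partners in iron-sulfur handling, 0 passed either threshold, the median was -0.02, and CIAO1 and NUBP1, of the cytosolic iron-sulfur assembly pathway, had 0.06 ± 0.06 and 0.11 ± 0.13. Among the type II MAGE genes, 5 of 9 were tested and 0 passed either threshold. MAGED1 and MAGED2 had -0.12 ± 0.07 and -0.08 ± 0.05, the median was -0.08, and MAGEE1, MAGEE2, MAGEL2 and NDN had 0 counts in every library. SERF2, the single-copy relative of SERF1, had -0.07 ± 0.06 and also passed neither threshold. With 1 library left out, NUBP1 ranged from 0.04 to 0.20, CIAO1 from 0.03 to 0.10, DDX20 from 0.06 to 0.16, MAGED1 from -0.19 to -0.08 and SERF2 from -0.12 to -0.03. Over these 48 genes the CV ran from 1.13% to 18.2% in the EV group and from 0.845% to 21.9% in the KRT19 group, below the lowest CV of a summed pair in each group.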

How the data were processed

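RNA was sequenced from 8 libraries, grouped by their titles into EV (n = 4) and KRT19 (n = 4). The authors deposited raw read counts per gene without normalization. RNA was isolated with TRIzol and a NEBNext Ultra kit was used for the libraries, although the label text on extraction names retina. The submitters' processing notes name Bowtie 0.12.2, featureCounts 1.5.0-p3, DESeq2 and hg38. The read length, and whether counting used strand or reads with several matches, were not given in the sources used here. All 58735 identifiers were found in GENCODE 29, of which 58724 had the same start and end.

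The members and lists were chosen with earlier results of these data known. For the tests, the rows of each pair were summed before filterByExpr, TMM scaling and glmQLFTest in edgeR 4.0.16 (R 4.3.3) on group alone, and copies were fitted likewise on the table as deposited. CPM used the TMM-scaled library sizes. DESeq2 1.42.0, its size factors, a looser filter, a replicate block and leaving out each library were tried. The named genes were all 10 members, the 2 genes of lowest p in each related list, and the 3 other copy pairs with the widest range of the share. Overlapping genes were to be named at 10 or more counts in every library. None reached this, and those given were chosen after their values were seen. Sequences were read from GENCODE 29 and RefSeq (GRCh38.p14). With the lowest chi-square per degree of freedom at 2.82 over 12 pairs of replicates, no library was a repeat of another. Over all features tested, same-numbered libraries did not deviate together.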

Additional observations from a re-analysis of the deposited data

Results flagged for a closer look

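Of 40 groups of 4 values, which were the CPM of the 10 copies and 5 sums and the shares of the first copy in each group, 5 held 1 library far from the other 3 by Dixon's 95% criterion. Chance flags about 1 in 20 groups, but the copies were selected for unstable counts and the copies, sums and shares overlap, so the number of such groups tests nothing. SMN2 stood at 10.9 CPM in KRT19 3, and the share of SMN1 in the same library was 68.7%, which are not separate findings. EIF3CL stood at 25.8 CPM in KRT19 3 and at 21.4 CPM in EV 4. The share of MAGED4 was 72.9% in EV 2. The cause of these values was not tested.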

How the results depend on the processing

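All 5 sums kept their direction, and stayed on the same side of the threshold, with DESeq2's size factors and with the DESeq2 Wald test. With a filter of at least 1 count over all libraries, 4 sums passed by edgeR: 1.09 for SERF1 (adjusted p = 1.105e-05), 3.92 for BOLA2 (2.996e-195), -0.72 for EIF3C (1.296e-23) and -1.23 for MAGED4 (3.202e-14). Calls over all features went from 1 to 67. In that fit the prior degrees of freedom of edgeR were infinite, against 11.0, so that each feature took the spread of the trend. The quasi-dispersion of the BOLA2 sum fell from 36.5 to 0.879. The DESeq2 Wald test called 4 features. Leaving out 1 library gave 1 to 4 calls. The sums then ranged from 0.86 to 1.30 for SERF1, -0.33 to 0.13 for SMN (0.13 without EV 4), 3.30 to 4.32 for BOLA2, -0.94 to -0.45 for EIF3C and -1.99 to -0.77 for MAGED4. Leaving out KRT19 3 gave 4 calls and leaving out EV 1 gave 3, and the cause was not tested. With the replicate number as a block, the SERF1 and BOLA2 sums were 1.09 and 3.41 (adjusted p = 0.289 for both) and 1 feature was called, so no call changed. Over all features tested, residual correlations of same-numbered libraries were -0.11, -0.03, -0.16 and 0.06, so the numbers did not pair the libraries. The named related genes kept their direction and their side of the threshold in every setting. The copies and shares, which have no test, moved by less than 1 SD between replicates, but without 1 library EIF3CL (0.18) ranged from -0.31 to 0.57, MAGED4 (-0.46) from -1.49 to -0.09 and SMN1 (-0.32) from -0.44 to -0.03, and the difference in the share of SMN1 (-8.22 percentage points) from -11.0 to -1.03. At 1 to 14 counts, SERF1A and BOLA2 allow no statement on a change. Summed counts cannot recover reads that match both copies and were not counted, or reads counted for a gene outside the pair.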

Other observations

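A screen of the whole table, chosen after the data were seen, asked which other genes behaved like the members. It kept genes with at least 50 counts in a library and at least an 8-fold range of CPM within a group, with 0.5 added to each count. Of 12120 genes with at least 50 counts and enough sampled words to compare, 16 met it, and 3 of these were members: BOLA2B, SMN2 and MAGED4B. At least 50% of the sampled 75-base words occurred in another gene for 15 of the 16 (93.8%), and for 277 of all 12120 (2.29%). The 3 members had been selected for unstable counts and near-identical copies, so the percentages describe these genes and test nothing. The cause of the wide ranges was not tested. The exception was AC245595.1.

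The widest range belonged to GAGE2A, a cancer-testis antigen gene of a large tandem family, which had 1851 to 2852 counts in the EV libraries, 1946 to 2361 in KRT19 2 to KRT19 4 and 2 in KRT19 1. GAGE12J of the same family had 1380 to 1923 counts in 6 libraries, 27 in EV 4 and 14 in KRT19 4. CBSL, a copy of the cystathionine beta-synthase gene, had 274 counts in EV 4, 52 in KRT19 4 and 2 to 21 in the others. U2AF1, a splicing factor gene, had 104 and 227 counts in KRT19 1 and KRT19 2 and 5 to 29 in the other 6 libraries, and SMIM11A had 240 counts in KRT19 2 and 4 to 24 in the others.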
